A study of Mus musculus with 9 samples.

Results

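Among the genes measured by RNA sequencing in sorted mouse skeletal stromal cells, 316 separated the resting periosteal state from both bone marrow and transplanted periosteum. A gene belonged to this set when its lowest value in the 3 libraries of periosteal skeletal stem cells (P-SSCs) at steady state lay above the highest value of the other 6 libraries, or when its highest P-SSC value lay below the lowest of the other 6. The other libraries were 3 of mesenchymal stem cells of the marrow (BM-MSCs) and 3 of graft P-SSCs. Of 8329 genes in the table, 1948 had at least 1 FPKM (fragments scaled by gene length and library total) in at least 3 of the 9 libraries and could enter. In 134 genes the P-SSC libraries lay above and in 182 below, which is 6.88% and 9.34% of the genes tested. The values that chose these genes are given as a description, without a test.

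All mice were wild-type C57BL/6J adults, and all cells were sorted as CD45-Ter119-CD31-CD51+CD200+. At day 0, marrow gave the BM-MSCs and periosteum the P-SSCs, and graft P-SSCs came from the periosteum of a whole femur that had been implanted under the skin of the back of a recipient mouse and was taken 3 days later. Some libraries hold RNA of more than 1 mouse, and the column names mark replicate 2 of the P-SSCs and of the BM-MSCs as such pools. The graft differs from the resting periosteum in transplantation and in 3 days outside its own blood supply, and these cannot be told apart here. Periosteum was incubated longer in the dissociation enzymes than marrow, so tissue and digestion cannot be told apart between P-SSCs and BM-MSCs either.

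Library totals, read from the size of a single fragment in the deposited values, lay between 16890241 and 21315438 fragments. Across the genes tested, the lowest correlation between log2(FPKM + 1) values of libraries of the same group was 0.858 in P-SSCs, 0.945 in BM-MSCs and 0.982 in graft P-SSCs, and P-SSC replicate 3 was a member of the weakest P-SSC pair. Of 24 genes of the sort gate and of skeletal stroma, *Postn* was the 1 in the table, and the others were not analysed here. *Postn* (periostin), a matrix gene of periosteum, had 451, 476 and 391 FPKM in P-SSCs, 782, 829 and 879 FPKM in graft P-SSCs and 125, 100.5 and 90.6 FPKM in BM-MSCs.

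The periosteum is the fibrous sheath of bone. Its stem cells are largely quiescent in the adult and divide after fracture or injury to form new bone and cartilage, while the stroma of the marrow supports blood stem cells. A cell leaving quiescence turns down cyclin-dependent kinase inhibitors such as p21 and turns on replication and mitosis genes in order, the latter through the factor FOXM1 and promoter elements named CCAAT and CHR. Stress-responsive factors such as ATF3 are induced within minutes by injury, and complement proteins and matrix glycoproteins are secreted by connective tissue cells.

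The promoters of the genes chosen to label the resting state are shown as a description. That of the member with the widest separation in the opposite direction is shown with them. Each runs from 250 bases before to 50 bases after a RefSeq transcript start (GRCm38.p6), 5′ to 3′ along the gene's strand. Capitals mark the letters ACGTCA of a cyclic AMP response element (CRE) in *Atf3*, matches to a p53 motif in *Cdkn1a*, the letters TTGCNNAA of a C/EBP motif and TATAAA in *C3*, and CCAAT and the CHR letters TTTGAA in *Plk1*. No motif of the 10 searched was found in the window of *4930404H11Rik*. The RefSeq starts of *Atf3* and *4930404H11Rik* lay 34706 and 52322 bases inside the ends of the genes as the deposited table gives them, and *Cdkn1a* has 2 listed starts, of which the one nearest to the table's end is shown.
Atf3 (chr1:191183284-191183583, minus strand): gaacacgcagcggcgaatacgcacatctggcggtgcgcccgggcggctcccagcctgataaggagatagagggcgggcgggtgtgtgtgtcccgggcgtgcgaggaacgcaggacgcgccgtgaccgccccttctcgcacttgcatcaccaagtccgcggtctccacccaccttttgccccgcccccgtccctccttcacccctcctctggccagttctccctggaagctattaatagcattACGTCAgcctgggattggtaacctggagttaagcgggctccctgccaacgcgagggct
Cdkn1a (chr17:29090729-29091028, plus strand): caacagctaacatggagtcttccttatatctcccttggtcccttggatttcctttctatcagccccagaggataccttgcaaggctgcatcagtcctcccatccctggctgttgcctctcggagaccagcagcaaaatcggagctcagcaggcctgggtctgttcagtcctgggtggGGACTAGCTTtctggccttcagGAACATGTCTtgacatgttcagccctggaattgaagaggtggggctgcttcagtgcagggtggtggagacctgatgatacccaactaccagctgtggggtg
C3 (chr17:57228087-57228386, minus strand): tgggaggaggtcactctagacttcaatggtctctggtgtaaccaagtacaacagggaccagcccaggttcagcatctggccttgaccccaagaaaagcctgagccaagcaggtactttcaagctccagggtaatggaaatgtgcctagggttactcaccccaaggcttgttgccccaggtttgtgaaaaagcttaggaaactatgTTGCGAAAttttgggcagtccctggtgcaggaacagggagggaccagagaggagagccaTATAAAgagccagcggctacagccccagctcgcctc
4930404H11Rik (chr12:71540357-71540656, plus strand): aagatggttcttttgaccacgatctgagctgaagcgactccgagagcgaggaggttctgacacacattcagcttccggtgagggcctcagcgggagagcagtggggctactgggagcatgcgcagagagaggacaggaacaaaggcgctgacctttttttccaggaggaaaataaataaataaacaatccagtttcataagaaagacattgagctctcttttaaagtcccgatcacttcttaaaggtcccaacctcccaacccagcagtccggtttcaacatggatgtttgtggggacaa
Plk1 (chr7:122159185-122159484, plus strand): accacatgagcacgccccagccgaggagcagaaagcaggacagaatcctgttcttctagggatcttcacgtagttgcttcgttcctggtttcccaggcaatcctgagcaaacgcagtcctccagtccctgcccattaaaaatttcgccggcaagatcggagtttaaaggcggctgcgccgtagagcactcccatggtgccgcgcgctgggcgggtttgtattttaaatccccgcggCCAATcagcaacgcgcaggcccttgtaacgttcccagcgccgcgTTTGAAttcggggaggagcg

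The gap between the P-SSC libraries and the nearest other library was at least 1 on the log2(FPKM + 1) scale in 38 genes above and 29 below, and its median was 0.48 above and 0.29 below. The mean of the P-SSC libraries differed from the mean of the other groups by a median of 1.54 in the genes above and -1.33 in the genes below, against -0.19 over all genes tested. With libraries scaled by the median of ratios, which moved the median of all genes to -0.03, 163 genes lay above and 143 below. After quantile normalization 165 lay above and 116 below. Of the 134 and 182 genes, 120 and 98 kept their place under both scalings, so the preponderance of genes below turned around with the scaling. In bulk samples such as these, fewer cells of a type and less RNA per cell cannot be told apart. Leaving out a library can only add genes. Without P-SSC replicate 3 there were 190 above and 377 below. This library was the nearest of the P-SSC libraries to the other groups in 56 of the 134 genes above, replicate 2 in 51 and replicate 1 in 27. In the genes below it was the nearest in 54, replicate 1 in 58 and replicate 2 in 52, with ties in 18.

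**Figure D1:**
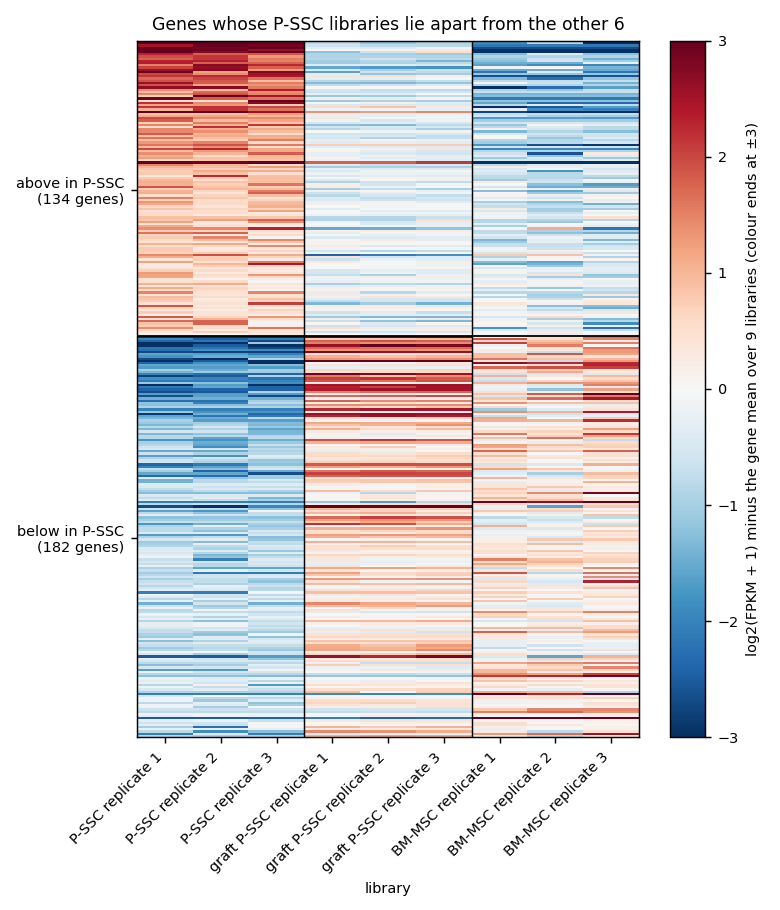
Each row is 1 of the 316 genes, ordered by direction and then by the gap to the nearest other library, and each column is 1 of the 9 libraries. Colour gives log2(FPKM + 1) minus the mean of the gene over the 9 libraries, so that the 134 genes above the line are red and the 182 below it blue in P-SSCs, and the graft libraries differ from the BM-MSC libraries in some rows of both blocks.

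The 4 genes that label this state all lay above, but they were chosen with earlier results of these data known. *Atf3*, a bZIP transcription factor of the stress response on chromosome 1 from 191170296 to 191218039, had 577, 611 and 271 FPKM in P-SSCs, 90.1, 90.8 and 88.8 FPKM in graft P-SSCs and 10.7, 18.1 and 28.6 FPKM in BM-MSCs. Its P-SSC values were all more than the graft values, and the graft values all more than those of the marrow. The means were 486 ± 187, 89.9 ± 0.997 and 19.1 ± 8.97 FPKM (SD, n = 3 each), so P-SSCs held 5.41 times the graft level and 25.4 times the marrow level. The fitted difference from the mean of the other groups was 3.47 (SE 0.32) on the log2 scale. Of the other 7 immediate early and stress genes tested, none lay above or below, and the median difference of the 8 was 0.16. *Cdkn1a*, which encodes the cell cycle inhibitor p21 on chromosome 17 from 29090976 to 29100727, had 342, 249 and 176 FPKM in P-SSCs, 90.4, 75.3 and 84.8 FPKM in graft P-SSCs and 70.3, 89.9 and 105 FPKM in BM-MSCs. Here graft and marrow libraries overlapped, and their difference was -0.07 (95% interval -0.62 to 0.49). Of the 6 genes tested for growth arrest and the p53 response, *Cdkn1a* lay above and *Cdkn2c*, the inhibitor p18, below. That is 16.7% each way, beside 6.88% and 9.34% of all genes.

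*C3*, the central component of complement on chromosome 17 from 57203970 to 57228136, had 3907, 3905 and 2168 FPKM in P-SSCs, 374, 425 and 302 FPKM in graft P-SSCs and 323, 523 and 383 FPKM in BM-MSCs. It was among the most abundant members, at 8.11 times the marrow mean and 9.06 times the graft mean, and P-SSC replicate 3 was the lowest of its group, as it was for *Atf3* and *Cdkn1a*. The graft and marrow differed by -0.14 (95% interval -0.74 to 0.45). *4930404H11Rik*, a long intergenic noncoding RNA on chromosome 12 from 71488285 to 71556133, had the widest gap of all genes above, 3.75. It measured 18.4, 18.2 and 15.4 FPKM in P-SSCs, 0.222, 0.0460 and 0.164 FPKM in graft P-SSCs and 0 FPKM in each library of BM-MSCs. The P-SSC libraries lay within a narrow range and the other 6 at or close to 0, and no fold is given against marrow because it was listed at 0 there. The gene passed the filter on low values only through the P-SSC libraries.

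**Figure D2:**
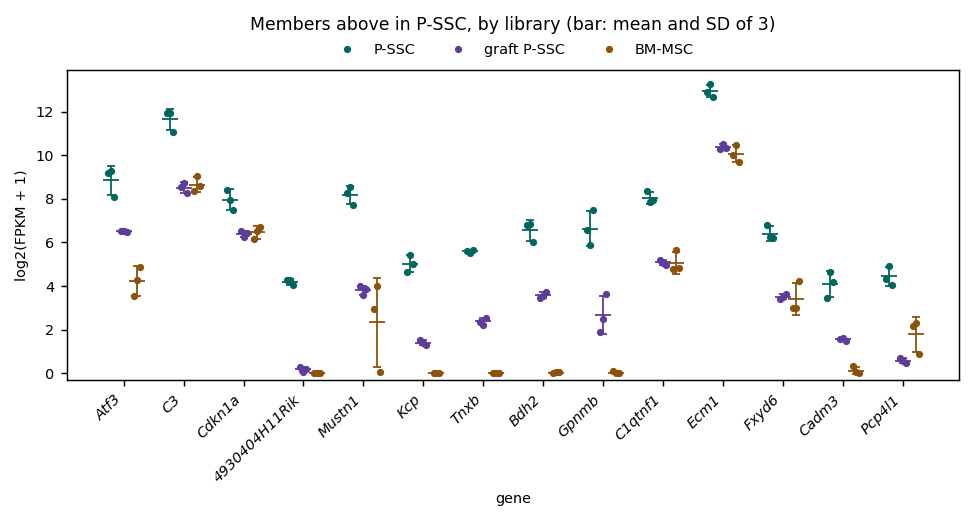
Each point is a library, the bar and whiskers are the mean and SD of 3 libraries, and the vertical axis is log2(FPKM + 1) for 14 genes above in P-SSCs. The first 4 are the genes that label the state, and the others are the 10 with the next widest gaps whose P-SSC mean reached 10 FPKM; the graft lies between P-SSC and BM-MSC in *Atf3*, *Tnxb* and *Bdh2* and at the level of BM-MSC in *C3*, *Cdkn1a* and *C1qtnf1*.

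Beyond these, the widest gaps belonged to genes that were low in the graft and low or close to 0 in marrow. *Mustn1*, which encodes a small nuclear protein of muscle and skeletal tissue, had 307, 372 and 210.4 FPKM in P-SSCs, 14.9, 11 and 13.4 FPKM in graft P-SSCs and 6.71, 15 and 0.0443 FPKM in BM-MSCs. In fragments these were 7508, 8158 and 4943 in P-SSCs against 326, 289 and 297 in the graft and 140, 348 and 1 in BM-MSCs, and the marrow libraries spanned the graft values. *Kcp*, a secreted regulator of BMP signalling, had 24.1, 41.3 and 31.6 FPKM in P-SSCs, 1.86, 1.58 and 1.48 FPKM in graft P-SSCs and 0, 0.0221 and 0 FPKM in BM-MSCs. *Tnxb*, the matrix glycoprotein tenascin-X, had 48.2, 44.6 and 49.4 FPKM in P-SSCs, 4.11, 3.70 and 4.84 FPKM in graft P-SSCs and 0, 0.00492 and 0 FPKM in BM-MSCs. Both were close to 0 in marrow, low in the graft and highest in resting periosteum, with no overlap between any pair of groups. *Bdh2*, a cytosolic dehydrogenase, had 112, 113 and 63.1 FPKM in P-SSCs, 9.91, 10.7 and 12.4 FPKM in graft P-SSCs and 0, 0.0344 and 0.0354 FPKM in BM-MSCs. *Gpnmb*, a transmembrane glycoprotein also known as osteoactivin, had 93.6, 57.3 and 177 FPKM in P-SSCs, 2.71, 4.58 and 11.4 FPKM in graft P-SSCs and 0.0660, 0 and 0 FPKM in BM-MSCs, with no overlap between groups.

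In further members the graft and marrow values overlapped. *C1qtnf1*, a secreted protein of the C1q and TNF related family, had 331, 231 and 242 FPKM in P-SSCs, 35.1, 32.8 and 30.7 FPKM in graft P-SSCs and 26.2, 49.5 and 27.1 FPKM in BM-MSCs. Its graft and marrow means differed by 0.00 (95% interval -0.57 to 0.58). *Ecm1*, extracellular matrix protein 1, was the most abundant gene above, with 7623, 9787 and 6580.2 FPKM in P-SSCs, 1237, 1461 and 1287 FPKM in graft P-SSCs and 1031, 1429.5 and 831 FPKM in BM-MSCs. Resting periosteum therefore carried 7.29 times the marrow level and 6.02 times the graft level of *Ecm1*. *Serpinf1*, the secreted pigment epithelium-derived factor, followed the same order of levels with 5963, 6461 and 4514 FPKM in P-SSCs, 1857, 1930.2 and 1938 FPKM in graft P-SSCs and 1485, 2011 and 1524 FPKM in BM-MSCs. *Fxyd6*, a regulator of the sodium pump, had 109, 74.2 and 72.6 FPKM in P-SSCs, 9.49, 10.4 and 11.6 FPKM in graft P-SSCs and 6.85, 6.93 and 17.8 FPKM in BM-MSCs. *Ogn*, the small leucine-rich proteoglycan osteoglycin, had 347, 277 and 282 FPKM in P-SSCs, 69.9, 86.6 and 63.6 FPKM in graft P-SSCs and 142, 83.8 and 73 FPKM in BM-MSCs, and its graft and marrow values overlapped.

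Matrix genes were split between both directions. Of 20 collagens and matrix proteins tested, 7 lay above in P-SSCs and 4 below, or 35% and 20%, beside 6.88% and 9.34% of all genes. The median difference of the 20 was 0.69 against -0.19 over all genes. Above were *Ecm1*, *Prelp*, *Thbs3*, *Ogn*, *Cilp*, *Tnxb* and *Cilp2*, of which *Prelp* was lost under quantile normalization. *Thbs3*, thrombospondin 3, had 337, 416 and 324 FPKM in P-SSCs, 184, 185 and 184 FPKM in graft P-SSCs and 32, 17 and 14 FPKM in BM-MSCs. *Cilp*, cartilage intermediate layer protein, had 352, 263 and 381 FPKM in P-SSCs, 122, 125 and 157 FPKM in graft P-SSCs and 0.0286, 0.0257 and 0.0397 FPKM in BM-MSCs, so the graft libraries all held more than 100 FPKM of a transcript close to 0 in every marrow library. *Cilp2*, its paralog, had 2.29, 2.26 and 124 FPKM in P-SSCs, 0.0918, 0.217 and 0.168 FPKM in graft P-SSCs and 0.0274, 0.0123 and 0.0254 FPKM in BM-MSCs, and P-SSC replicate 3 stood far above the other P-SSC libraries, which were themselves above the other 6. In fragments, this library held 10182 against 195 and 173 in the other P-SSC libraries. Of 12 tendon and fibrous tissue markers, *Cilp* and *Cilp2* were the 2 in the table. Their sum was 265 to 506 FPKM in P-SSCs, 122 to 157 in the graft and 0.0380 to 0.0651 in BM-MSCs. The part of cells of such tissue was not tested. Below were *Tnc*, *Angptl4*, *Emilin1* and *Wisp1*, of which *Angptl4* encodes an inhibitor of lipoprotein lipase and not a structural protein. *Tnc*, tenascin-C, had 36.6, 55.4 and 21.7 FPKM in P-SSCs, 194, 184 and 245 FPKM in graft P-SSCs and 1258, 956 and 946 FPKM in BM-MSCs. Tenascin-X and tenascin-C thus lay on opposite sides, the first high in resting periosteum and the second low there. *Emilin1*, an elastin-associated glycoprotein, had 78.4, 57.8 and 78.8 FPKM in P-SSCs, 248, 229.6 and 252 FPKM in graft P-SSCs and 207, 269.8 and 207 FPKM in BM-MSCs. Of 7 matrix proteases and inhibitors, *Adamts5* and *Adamtsl2* lay above, and *Adamts5*, an aggrecan-degrading protease, had 15.3, 8.73 and 19.6 FPKM in P-SSCs, 7.58, 5.97 and 7.19 FPKM in graft P-SSCs and 1.87, 1.36 and 2.82 FPKM in BM-MSCs.

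Receptors, ligands and their regulators above in P-SSCs came from several pathways. *Ackr3*, an atypical receptor that takes up the chemokine CXCL12, had 1317, 1244 and 812 FPKM in P-SSCs, 344, 319.8 and 366 FPKM in graft P-SSCs and 18.6, 6.01 and 0.980 FPKM in BM-MSCs. No other of the 22 cytokine, chemokine and receptor genes tested lay above. *Dkk2*, a secreted modulator of Wnt signalling, had 31.1, 14.1 and 12.2 FPKM in P-SSCs, 3.85, 2.55 and 3.70 FPKM in graft P-SSCs and 0 FPKM in each library of BM-MSCs, and no fragment of it was counted in the marrow libraries. *Ntf3*, neurotrophin 3, had 15, 8.52 and 6.76 FPKM in P-SSCs, 0.0803, 0.0666 and 0.198 FPKM in graft P-SSCs and 1.56, 0.717 and 0 FPKM in BM-MSCs. *Egfr*, the epidermal growth factor receptor, had 114, 98.9 and 79.7 FPKM in P-SSCs, 42.6, 46.6 and 50.4 FPKM in graft P-SSCs and 73, 77.5 and 59.2 FPKM in BM-MSCs, but it entered by a gap of only 0.04 and left the set under the median of ratios. Of 10 genes tested for TGF-beta, BMP and activin signalling, none lay above or below. *Plau*, the urokinase plasminogen activator, had 14.7, 18.1 and 7.74 FPKM in P-SSCs, 2.81, 3.30 and 4.01 FPKM in graft P-SSCs and 0 FPKM in each library of BM-MSCs. *Zfp423*, a zinc finger factor of preadipocytes, had 35.8, 27.1 and 47.8 FPKM in P-SSCs, 10.7, 9.29 and 8.36 FPKM in graft P-SSCs and 7.98, 1.31 and 15.5 FPKM in BM-MSCs, and *Zbtb20*, a transcriptional repressor, had 57.1, 24 and 39.3 FPKM in P-SSCs, 6.80, 5.44 and 5.37 FPKM in graft P-SSCs and 10.3, 23.1 and 14.3 FPKM in BM-MSCs. Of 8 G1 and cyclin-dependent kinase regulators, 1 lay above (12.5%) and 2, *Cdk4* and *Foxm1*, below (25%), beside 6.88% and 9.34% of all genes. *Ccnd2*, cyclin D2, lay above with 117, 90.5 and 109 FPKM in P-SSCs, 75.7, 60.9 and 67.8 FPKM in graft P-SSCs and 58.7, 47.3 and 56.6 FPKM in BM-MSCs.

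Some members were neighbours in the genome. *Duox1*, a dual oxidase that makes hydrogen peroxide on chromosome 2 from 122315672 to 122347972, and *Duoxa1*, its maturation factor on chromosome 2 from 122302191 to 122313730, are transcribed away from each other with 1942 bases between them. *Duox1* had 26.6, 28.5 and 32.3 FPKM in P-SSCs, 7.24, 7.69 and 6.28 FPKM in graft P-SSCs and 0, 0 and 0.0312 FPKM in BM-MSCs. *Duoxa1* had 66.5, 68.9 and 60.3 FPKM in P-SSCs, 21.5, 26.4 and 17.9 FPKM in graft P-SSCs and 0, 1.64 and 3.79 FPKM in BM-MSCs. In both, the graft lay between resting periosteum and marrow without overlap. *Nectin2* and *Bcam*, adhesion genes 5648 bases apart on chromosome 7, lay in opposite directions. *Nectin2* had 4.57, 4.28 and 3.04 FPKM in P-SSCs, 21.8, 21.5 and 22.1 FPKM in graft P-SSCs and 30.3, 60.1 and 37 FPKM in BM-MSCs, while *Bcam*, a laminin receptor, had 69.3, 98.7 and 54.8 FPKM in P-SSCs, 3.93, 5.15 and 6.37 FPKM in graft P-SSCs and 43.8, 47 and 27.5 FPKM in BM-MSCs. *Bcam* was lowest in the graft and left the set under the median of ratios. Where genes overlap, as *Ogn* does *Cenpp*, reads cannot be assigned to a strand because the kind of library is not stated.

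Transporters, channels and noncoding genes were also among those above. *Slc43a3*, a purine nucleobase transporter, had 518, 652 and 493 FPKM in P-SSCs, 128, 132 and 156 FPKM in graft P-SSCs and 63, 32.9 and 69.1 FPKM in BM-MSCs. *Slc6a2*, the noradrenaline transporter, had 7.29, 6.94 and 3.13 FPKM in P-SSCs, 0.241, 0.177 and 0.329 FPKM in graft P-SSCs and 0.301, 0.331 and 0.351 FPKM in BM-MSCs, with overlapping low values in graft and marrow. Of 27 solute carriers tested, 3 lay above (11.1%) and 1 below (3.7%), and of 14 ion channels and pumps 3 above (21.4%) and 1 below (7.14%), beside 6.88% and 9.34% of all genes. Genes without a protein product made up 9 of the 134 above (6.72%) and 3 of the 182 below (1.65%), beside 8.01% of all genes tested. *Gm46323*, a second intergenic noncoding RNA with a wide gap, had 198, 201 and 70 fragments in P-SSCs, 12, 6 and 9 in the graft and 0 in each BM-MSC library. The antisense genes *Gm45187* and *Dhx58os* could not be told apart from their partners, again because strand is not stated.

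Some members above are known from muscle or nerve, and *Mrln* and *Pmp22* were chosen after their values were seen. They include *Mustn1*, *Mrln*, which encodes a micropeptide inhibitor of the sarcoplasmic calcium pump and was listed at 0 in all libraries but those of P-SSCs, and *Pmp22*, a peripheral myelin protein. *Pmp22* had 886, 817 and 1023 FPKM in P-SSCs, 211, 220.3 and 217 FPKM in graft P-SSCs and 502, 362 and 354 FPKM in BM-MSCs. In the marker lists, 2 of 16 skeletal muscle genes were in the table and their summed level was 1.77 to 6.51 FPKM in P-SSCs, 0.00249 to 0.408 in graft P-SSCs and 0.0553 to 3.48 in BM-MSCs. *Myl1* reached 6.47 FPKM in P-SSCs, 0.405 in the graft and 3.48 in BM-MSCs, and *Ttn* stayed at or under 0.0727 FPKM in all libraries. Of 9 Schwann and nerve genes, 2 were in the table, *Mbp* and *Sox10*, with sums of 8.32 to 116.7 FPKM in P-SSCs, 2.77 to 3.27 in the graft and 1.93 to 19.5 in BM-MSCs. P-SSC replicate 3 had the highest nerve sum. The part of such cells in the result was not tested.

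The genes below in P-SSCs were led by the cell cycle. Of 20 mitosis genes tested, 16 lay below and none above, or 80% beside 9.34% of all genes, and of 10 DNA replication genes 6 lay below. The medians were -2.97 and -1.35 on the log2 scale. Under either scaling 16 of the mitosis genes and 5 of the replication genes lay below. Leaving out 1 library, which can only add genes, gave 16 or 17 and 6 or 7. Without P-SSC replicate 3, 1 mitosis gene lay above. *Plk1*, a kinase of mitotic entry whose promoter is shown above, lies on chromosome 7 from 122159439 to 122169873 and had the widest gap of all, 3.91. It measured 0.0434, 0 and 0 FPKM in P-SSCs, 146, 153 and 151 FPKM in graft P-SSCs and 14.7, 20.2 and 48.7 FPKM in BM-MSCs. The P-SSC libraries lay at or next to 0 while every marrow library had more than 10 FPKM and every graft library more than 100, and BM-MSC replicate 3 was the highest of its group. *Cdc20*, the activator of the anaphase-promoting complex, had 0.541, 3.66 and 0.306 FPKM in P-SSCs, 264, 256 and 271 FPKM in graft P-SSCs and 31.7, 14.9 and 62.4 FPKM in BM-MSCs. *Ncaph*, a condensin subunit, had 1.59, 1.52 and 0.767 FPKM in P-SSCs, 38.1, 36.1 and 37 FPKM in graft P-SSCs and 11.2, 14.4 and 34.9 FPKM in BM-MSCs. *Stmn1*, a microtubule destabilizer, had 9.44, 13.2 and 12.6 FPKM in P-SSCs, 126, 140 and 125 FPKM in graft P-SSCs and 58.4, 61.3 and 122 FPKM in BM-MSCs, and it retained a measurable level in resting periosteum.

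**Figure D3:**
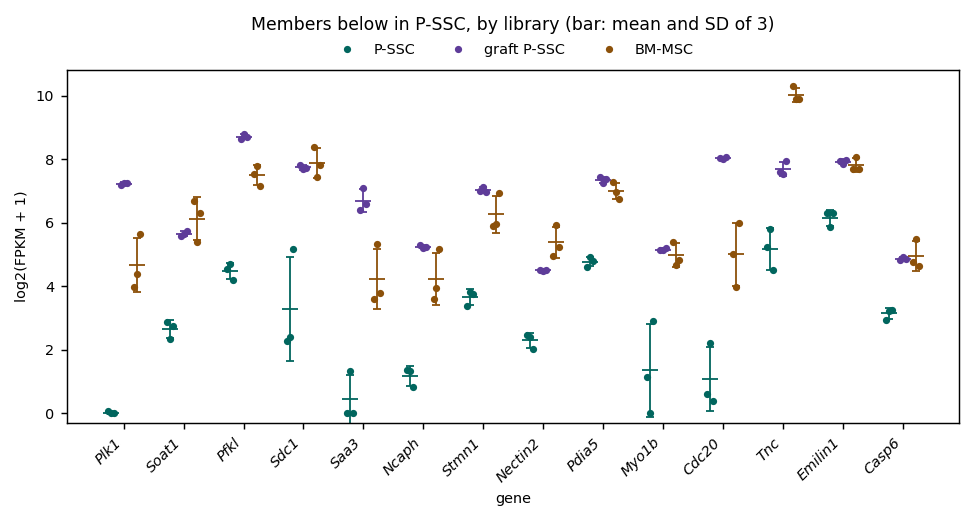
Points are libraries and bars with whiskers the mean and SD of 3 libraries, on log2(FPKM + 1), for the 14 genes below in P-SSCs with the widest gaps whose graft and marrow means both reached 10 FPKM. Graft values exceed those of the marrow in *Plk1*, *Cdc20* and *Saa3*, lie under them in *Tnc* and *Nectin2*, and lie beside them in *Emilin1* and *Casp6*.

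*Racgap1*, which is needed for cytokinesis, had 1.15, 0 and 2.47 FPKM in P-SSCs, 122, 126 and 117 FPKM in graft P-SSCs and 11, 3.50 and 23.1 FPKM in BM-MSCs, and *Cdca8*, a subunit of the chromosomal passenger complex, had 0, 3.03 and 0 FPKM in P-SSCs, 69.3, 75.4 and 72.9 FPKM in graft P-SSCs and 14.3, 8.53 and 34.9 FPKM in BM-MSCs. *Foxm1*, the transcription factor of mitotic genes, had 0.407, 0.151 and 0.0353 FPKM in P-SSCs, 41.2, 37.5 and 31.9 FPKM in graft P-SSCs and 2.58, 2.92 and 3.31 FPKM in BM-MSCs, with all graft values over all marrow values. *Mcm5* and *Mcm6* are subunits of the replicative helicase. *Mcm5* had 5.12, 11.4 and 4.77 FPKM in P-SSCs, 122, 133 and 146 FPKM in graft P-SSCs and 26.1, 48.7 and 110.5 FPKM in BM-MSCs, and *Mcm6* had 5.93, 7.41 and 14.7 FPKM in P-SSCs, 132, 140.2 and 139.8 FPKM in graft P-SSCs and 23.3, 26.5 and 78.1 FPKM in BM-MSCs. The marrow values of these genes were spread widely, with BM-MSC replicate 3 the highest, and the graft libraries close together. Some blood genes were also highest in that marrow library, with *Hba-a2* at 2200.5 FPKM against 617.9 and 748.4, *Lyz2* at 608.4 against 142.8 and 539.5 and *Spi1* at 9.95 against 2.43 and 6.53, while *Mpo* and *Adgre1* were highest in BM-MSC replicate 1, and their part in the result was not tested. *Cdk4*, the kinase partner of D cyclins, was abundant in all groups with 207, 232 and 180.1 FPKM in P-SSCs, 423, 441 and 471 FPKM in graft P-SSCs and 269.7, 241 and 304 FPKM in BM-MSCs, and it left the set under both scalings. *Cdkn2c*, which inhibits that kinase, lay below with 5.10, 3.65 and 5.44 FPKM in P-SSCs, 19.5, 21.2 and 16.4 FPKM in graft P-SSCs and 11.1, 7.22 and 9.96 FPKM in BM-MSCs.

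The elements marked in *Plk1* were searched in the promoters of all members. A promoter of RefSeq was matched by symbol for 96 of the 134 genes above, 131 of the 182 below and 1440 of the 1948 tested, and both strands were searched. Among 14 promoters of mitosis genes below, 11 (78.6%) held CCAAT and 10 (71.4%) held TTTGAA, while the shares over all 1440 promoters were 38.8% and 11.2%. Of 4 promoters of replication genes below, 2 held CCAAT and none held TTTGAA. Over all genes below the shares of CCAAT and TTTGAA were 45.8% and 16%, and over the genes above 36.5% and 12.5%. In the 18 mitosis and replication promoters together, GGCGGGA was in 27.8%, ACGTCA in 22.2%, the p53 motif in 11.1% and the other motifs searched in none. The E2F letters GGCGGGA were in 26.7% of promoters below, 19.8% above and 22.3% of all. TGANTCA, an AP-1 motif, was in 10.4% above, 3.82% below and 5.07% of all, and TATAAA in 10.4%, 3.82% and 7.29%. ACGTCA, the letters marked in *Atf3*, was in 3.12% above, 12.2% below and 10.8% of all, and TTGCNNAA, marked in *C3*, in 10.4%, 7.63% and 9.17%. CACGTG, an E-box, was in 5.21%, 5.34% and 9.24%. The NF-kB motif was in 6.25%, 1.53% and 5.21%, and the p53 motif, marked in *Cdkn1a*, in 9.38%, 6.11% and 7.71%. These shares are a description of the letters in the windows and were not tested.

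Several genes of metabolism lay below, though the lists they came from had members on both sides or few genes. Of 31 genes of lipid metabolism, 4 lay above, among them *Scd1* and *Pla2g4a*, and 4 below, or 12.9% each way beside 6.88% and 9.34% of all genes. *Pfkl*, the liver-type phosphofructokinase of glycolysis on chromosome 10 from 77986947 to 78010083, had 22.3, 25.1 and 17.3 FPKM in P-SSCs, 403, 444 and 415 FPKM in graft P-SSCs and 186, 221 and 142 FPKM in BM-MSCs. P-SSC values were lower than those of every other library, and the graft values highest. The other 4 glycolysis genes tested did not meet the rule. *Soat1*, which esterifies cholesterol, had 6.42, 4.07 and 5.76 FPKM in P-SSCs, 46.8, 49.5 and 52.8 FPKM in graft P-SSCs and 103, 41.3 and 78.1 FPKM in BM-MSCs. *Fabp5*, a fatty acid carrier, had 1.85, 3.23 and 1.35 FPKM in P-SSCs, 61.9, 50.6 and 69.3 FPKM in graft P-SSCs and 10.7, 8.96 and 8.93 FPKM in BM-MSCs. *Angptl4* had 41.2, 45.9 and 139 FPKM in P-SSCs, 763, 854 and 894 FPKM in graft P-SSCs and 380.4, 312 and 364 FPKM in BM-MSCs, with P-SSC replicate 3 the nearest to the other groups. *Bcat1*, the cytosolic branched-chain aminotransferase, had 6.47, 19.1 and 9.72 FPKM in P-SSCs, 328, 333 and 327 FPKM in graft P-SSCs and 50.0, 35.2 and 40.6 FPKM in BM-MSCs. *Idh2*, the mitochondrial isocitrate dehydrogenase that makes NADPH, had 31, 41.5 and 81 FPKM in P-SSCs, 307, 280.4 and 327 FPKM in graft P-SSCs and 194, 134 and 125 FPKM in BM-MSCs. *Hmox1*, heme oxygenase 1, had 49.8, 54.5 and 41.4 FPKM in P-SSCs, 211, 199.8 and 249 FPKM in graft P-SSCs and 92.9, 58.5 and 66.3 FPKM in BM-MSCs, and *Gsto1*, a glutathione transferase, had 24.6, 22 and 21.5 FPKM in P-SSCs, 87.6, 95.9 and 111 FPKM in graft P-SSCs and 32.4, 30.9 and 43.2 FPKM in BM-MSCs. Of 22 genes for glutathione, antioxidant defence and detoxification, 3 lay above (13.6%) and 4 below (18.2%), beside 6.88% and 9.34% of all genes, and *Hmox1* left the set under both scalings. None of 30 cytosolic ribosomal protein genes met the rule.

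Genes of complement, coagulation and acute phase were found on both sides, with 4 of 18 above (22.2%) and 3 below (16.7%), beside 6.88% and 9.34% of all genes. The genes above were *Serpinf1*, *C3*, *Fgl2* and *Plau*, and those below *Serpina3f*, *Saa3* and *C5ar1*. *Saa3*, an acute phase apolipoprotein, had 0, 1.51 and 0 FPKM in P-SSCs, 83.4, 138 and 95 FPKM in graft P-SSCs and 11.2, 39.3 and 12.8 FPKM in BM-MSCs, highest in the graft. *Serpina3f*, a serine protease inhibitor, had 0, 0 and 0.0486 FPKM in P-SSCs, 0.340, 0.0650 and 0.129 FPKM in graft P-SSCs and 141, 138 and 181 FPKM in BM-MSCs, so that the graft lay close to the resting periosteum and far under marrow. Related serpin genes share much sequence, and the assignment of reads among them is uncertain. Of 20 integrins, syndecans and adhesion genes, 3 lay above (15%) and 4 below (20%), again beside 6.88% and 9.34%. Under either scaling 3 lay above and 2 below, as *Ncam1* and *Itgb2* left the set. *Sdc1*, syndecan 1, had 3.85, 4.32 and 35 FPKM in P-SSCs, 225, 206 and 211 FPKM in graft P-SSCs and 335, 175 and 224 FPKM in BM-MSCs, again with P-SSC replicate 3 the highest of its group.

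Of 29 transcription factor genes outside the zinc finger list, *Atf3* lay above and *Foxm1*, *Runx1*, *Ets1* and *Tead3* below. These are 3.45% and 13.8%, beside 6.88% and 9.34% of all genes. *Runx1* had 0.585, 0.651 and 2.82 FPKM in P-SSCs, 25.2, 19.8 and 20.6 FPKM in graft P-SSCs and 9.04, 6.63 and 10.2 FPKM in BM-MSCs. *Ets1* entered with a gap of 0.01 and had 3.17, 0.775 and 7.64 FPKM in P-SSCs, 16.2, 13.6 and 16.6 FPKM in graft P-SSCs and 8.41, 7.69 and 8.42 FPKM in BM-MSCs. *Snai1*, a zinc finger repressor of epithelial genes, had 4.06, 5.97 and 4.06 FPKM in P-SSCs, 22.9, 25.9 and 32.3 FPKM in graft P-SSCs and 11.3, 12.7 and 14.3 FPKM in BM-MSCs, with all graft values over all marrow values.

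Some genes below are known from blood cells. *Cybb*, the catalytic subunit of the phagocyte oxidase, had 0 FPKM in each library of P-SSCs, 0.952, 0.316 and 1.35 FPKM in graft P-SSCs and 31.7, 25.8 and 79.9 FPKM in BM-MSCs. *Spi1*, the myeloid factor PU.1, had 0, 0.125 and 0 FPKM in P-SSCs, 1.76, 0.940 and 1.49 FPKM in graft P-SSCs and 6.53, 2.43 and 9.95 FPKM in BM-MSCs, *C5ar1*, a complement receptor of myeloid cells, had 0 FPKM in each library of P-SSCs, 1.67, 1.68 and 1.67 FPKM in graft P-SSCs and 9.51, 11.3 and 12.2 FPKM in BM-MSCs, and *Adgre1*, which encodes the macrophage antigen F4/80, had 0 FPKM in each library of P-SSCs, 2.75, 0.907 and 2.22 FPKM in graft P-SSCs and 3.17, 2.72 and 0.0342 FPKM in BM-MSCs. The sort removed CD45+ cells, and *Ptprc*, the gene for CD45, was listed at 0 in P-SSCs and had 0.113 to 0.311 FPKM in the graft and 0.326 to 1.35 in BM-MSCs. Of 11 pan-leukocyte markers, 2 were in the table, and their sum was 0 to 0.125 FPKM in P-SSCs, 1.05 to 2.07 in the graft and 3.78 to 11.1 in BM-MSCs. Of 15 macrophage and monocyte markers 4 were in the table, with sums of 14.5 to 72.3, 32.7 to 92.2 and 149.3 to 608.4 FPKM, mostly from *Lyz2*, and *Adgre1* and *Mrc1* were at 0 in all P-SSC libraries. *Csf1r*, the receptor for macrophage colony-stimulating factor, was ordered differently, at 0.248 to 0.835 FPKM in P-SSCs, 5.57 to 6.31 in the graft and 0 to 2.68 in BM-MSCs. Both neutrophil markers in the table were at 0 in P-SSCs and summed to 1.03 to 1.61 FPKM in the graft and 0.928 to 292.9 in BM-MSCs. The lymphocyte list was ordered differently. Its 2 genes in the table, *Ighm* and *Cd79b*, of 16, summed to 5.71 to 24.6 FPKM in P-SSCs, 0.271 to 0.623 in the graft and 12.5 to 38.3 in BM-MSCs, and *Cd79b* was at 0 in all P-SSC libraries. The erythroid gene *Hba-a2* had 2.13, 7.09 and 20.2 FPKM in P-SSCs, 3.67, 2.78 and 0.531 FPKM in graft P-SSCs and 748, 618 and 2200.5 FPKM in BM-MSCs. The part of blood cells in these members was not tested. In all, 18 of the 182 genes below were listed at 0 in every P-SSC library, and 16 of the 134 above were listed at 0 in every BM-MSC library.

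Graft P-SSCs were compared with BM-MSCs in a limma fit of all 1948 genes. The rule used the values of these 6 libraries, but it does not tell graft from marrow, since exchanging their labels leaves the members as they are. It favours genes with little spread between libraries, and the p-values of members do not account for this choice. The graft libraries also differed in the summed level of mitochondrial genes, 93.3 to 116.2 FPKM against 328.6 to 642.1 in BM-MSCs and 320.1 to 431.7 in P-SSCs, and had 2771 to 2829 genes above 0 against 2304 to 2521 and 2231 to 2466. Their part in the result was not tested. Of the members above, 29 not called passed the filter on low values only through the P-SSC libraries. So did 3 called higher in the graft and 1 called lower. The filter left these genes no direction but above. They include *4930404H11Rik*, *Mrln*, *Gm46323*, *Ntf3*, *Slc6a2*, *Adamtsl2* and *Cilp2*. Of the members below, 13 called lower in the graft passed the filter on low values only through the marrow libraries and 8 called higher only through the graft libraries, so their direction was fixed by the filter. Among them are *Serpina3f*, *Gpr50*, *Cybb*, *Spi1* and *Hist1h2ao*, for which no test is given. *Gpr50*, an orphan receptor, had 0 FPKM in each library of P-SSCs, 0.0813, 0.0337 and 0.160 FPKM in graft P-SSCs and 104, 19.3 and 126 FPKM in BM-MSCs. Over all genes 25.7% were higher in the graft at an adjusted p under 0.05 and 16.2% lower, and 1132 of the 1948 were not called. Of the 134 genes above in P-SSCs, 33 (24.6%) were higher in the graft and 12 (8.96%) lower, and 89 (66.4%) were not called. Of the 182 below, 53 (29.1%) were higher, 27 (14.8%) lower and 102 (56%) not called. The 53 include the 8, and the 27 the 13, whose direction the filter fixed. With the median of ratios the counts were 25 higher and 15 lower among genes above, and 43 and 32 among genes below, and over all genes 387 and 364. After quantile normalization they were 24 and 14, and 38 and 35, and over all genes 387 and 405. The share of calls that were higher in the graft therefore fell with the scaling in both sets and in all genes. The rule kept every graft and marrow value from reaching those of P-SSCs, and so limits how far apart they can lie in that direction.

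**Figure D4:**
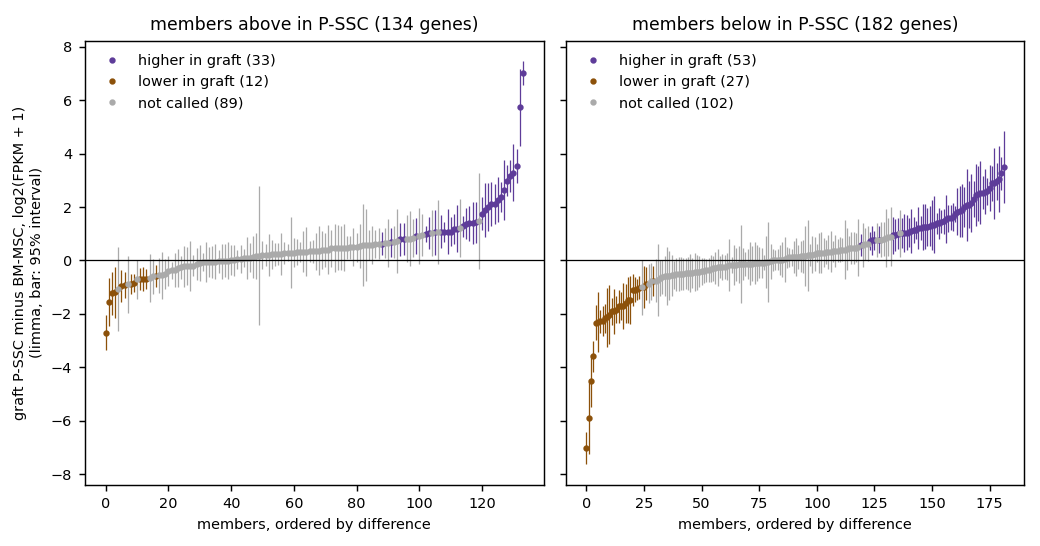
Each point is a member, placed by rank on the horizontal axis, and the vertical axis is the difference between graft P-SSCs and BM-MSCs on the log2(FPKM + 1) scale with its 95% interval from limma. Among genes above in P-SSCs 33 were higher and 12 lower in the graft, among those below 53 were higher and 27 lower, and grey marks the 89 and 102 that were not called. Of those below, 8 of the 53 and 13 of the 27 passed the filter on low values only through the group where they were higher.

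Among genes above in P-SSCs, the largest excesses of the graft over marrow were in *Cilp*, at 7.03 (SE 0.20, adjusted p = 1.7e-08), and *Ackr3*, at 5.73 (SE 0.65, adjusted p = 0.00011). *Bdh2* followed at 3.55 (SE 0.29, adjusted p = 1.41e-05), *Duoxa1* at 3.28 (SE 0.48, adjusted p = 0.000548) and *Thbs3* at 3.16 (SE 0.26, adjusted p = 1.75e-05). In each of these genes the 3 graft libraries lay under all P-SSC libraries and over all marrow libraries. *Atf3* was also higher in the graft, at 2.28 (SE 0.37, adjusted p = 0.0011). In the reverse direction, *Bcam* lay under the marrow by -2.70 (SE 0.29, adjusted p = 9.47e-05), *Pik3ip1*, a negative regulator of PI3K, by -1.55 (SE 0.40, adjusted p = 0.0123) and *Zbtb20* by -1.23 (SE 0.36, adjusted p = 0.0229). *Ubxn11* differed by -0.95 (SE 0.27, adjusted p = 0.0201). *Pcp4l1*, which passed the filter on low values only through the P-SSC libraries, differed by -1.19 (SE 0.42, adjusted p = 0.0463). The calls of *Zbtb20*, *Pcp4l1* and *Ubxn11* were lost when some single libraries were left out, with adjusted p-values of up to 0.0831, 0.141 and 0.0917.

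Genes below in P-SSCs that were higher in the graft than in marrow were led by cell cycle genes. *Racgap1* differed by 3.49 (SE 0.60, adjusted p = 0.00149), *Foxm1* by 3.26 (SE 0.28, adjusted p = 1.83e-05) and *Cdc20* by 3.04 (SE 0.55, adjusted p = 0.00204). *Bcat1* differed by 2.96 (SE 0.32, adjusted p = 8.41e-05). *Hist1h2ao*, a replication-dependent histone gene with near-identical copies, had 0, 0 and 0.767 FPKM in P-SSCs, 32.4, 26.6 and 38.9 FPKM in graft P-SSCs and 3.08, 0.886 and 10.7 FPKM in BM-MSCs. Of the 16 mitosis genes below, 13 were called higher in the graft and none lower, beside 25.7% and 16.2% of all genes. After quantile normalization 10 were called higher, and 2 of the 13 had passed the filter only through the graft. Of the 6 replication genes, 4 were called, and 2 under either scaling and without BM-MSC replicate 1, BM-MSC replicate 2, P-SSC replicate 1 or any graft library. In the opposite direction, *Tnc* differed by -2.33 (SE 0.30, adjusted p = 0.000222). *Tnc* thus lay between the resting and the marrow level in the graft, at 5.49 times the P-SSC mean and with 5.07 times as much in marrow.

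Among the members that were not called, the 95% interval of the difference stayed within 1 on the log2 scale in 40 of 89 above and 55 of 102 below. Of the 89, 29 passed the filter only through the P-SSC libraries, with fewer than 3 graft and marrow libraries at 1 FPKM or more. The transform understates differences between such low values, which can narrow the interval. In the other 49 and 47, the interval reached past 1. *Mustn1* was such a gene, at 1.47 (95% interval -0.32 to 3.26), and *Sdc1* another, at -0.14 (95% interval -1.60 to 1.31). *Ecm1*, at 0.31 (95% interval -0.19 to 0.80), *Serpinf1*, at 0.20 (95% interval -0.20 to 0.60), and *Emilin1*, at 0.10 (95% interval -0.28 to 0.49), had narrow intervals.

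**Figure D5:**
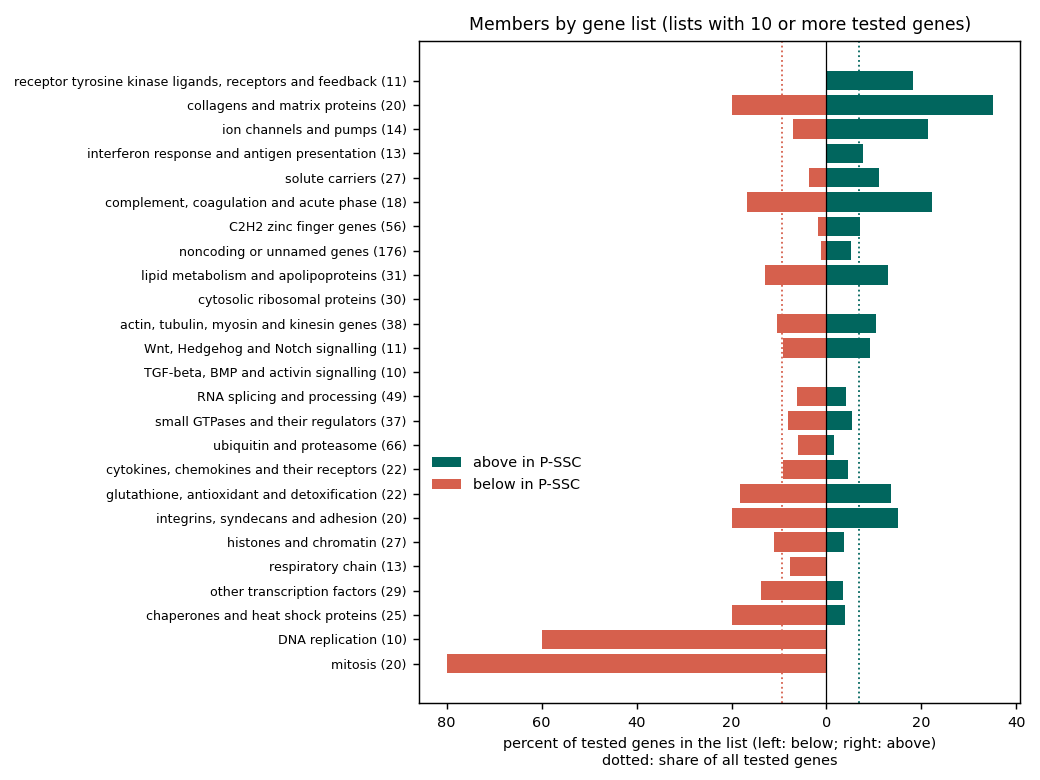
Bars give the share of the tested genes of each list that lay above (right) or below (left) in P-SSCs, for the 25 lists with 10 or more tested genes, whose number stands in brackets. Dotted lines mark the shares of all genes, 6.88% and 9.34%; mitosis and DNA replication extend furthest to the left at 80% and 60%, and collagens and matrix proteins furthest to the right at 35%.

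At the edge of the rule, members above with very small gaps included *Crat* and *2900026A02Rik*, and *Crat* had 63.8, 86.1 and 69.5 FPKM in P-SSCs, 33, 33.9 and 36.3 FPKM in graft P-SSCs and 52.2, 62.6 and 53.7 FPKM in BM-MSCs. The nearest genes outside it were *Fam214a*, *Gm10132* and *Nox4*, and *Nox4* had 13.6, 7.49 and 15.4 FPKM in P-SSCs, 7.46, 7.56 and 6.16 FPKM in graft P-SSCs and 0.0468, 0 and 0.0216 FPKM in BM-MSCs. Below, the smallest gaps were those of *Wdr75*, *Itgb2* and *Stx11*, and *Itgb2* had 0, 2.13 and 0 FPKM in P-SSCs, 2.14, 2.53 and 2.54 FPKM in graft P-SSCs and 9.15, 12.5 and 22.8 FPKM in BM-MSCs. The nearest outside were *Ccdc113*, *Cd79b* and *Colec11*. Those 3 were outside through ties at 0 between P-SSC and other libraries. The gap was under 0.1 in 16 genes above and 40 below. Of the genes named above, *Crat*, *Wdr75*, *Itgb2*, *Stx11*, *Gpr50*, *Serpina3f*, *Dhx58os* and *Tead3* also did not keep their place under both scalings. For comparison, by the same rule BM-MSCs were apart from the other 6 libraries in 405 genes and graft P-SSCs in 616.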

How the data were processed

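RNA sequencing was carried out on 9 libraries of sorted mouse cells in 3 groups of 3. Per the labels and the study's methods, poly-T selected RNA was sequenced, bases were called with CASAVA, reads were trimmed with fastp and aligned to GRCm38 with STAR 2.6.1d, and fragments were counted per gene with featureCounts 1.5.0-p3. The authors deposited FPKM per gene and library, and their own comparisons were made with DESeq2. Whether the libraries keep the strand is not given in the sources used here. FPKM depends on the total of each library, so a few abundant genes can shift all others.

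Values were transformed as log2(FPKM + 1), which understates the change of low genes, and genes with at least 1 FPKM in at least 3 libraries were kept. A linear model with a term for each group was fitted to all 9 libraries in limma 3.58.1 under R 4.3.3, with a mean-variance trend and Benjamini-Hochberg adjustment over the 1948 genes, and an adjusted p under 0.05 was called. It was checked on simulated data. The members, gene lists and tests were chosen with earlier results of these data known. Differences between P-SSCs and the other groups chose the members and carry an SE but no p-value. All tests were two-sided. Replicates came from different mice, in part pooled, and p-values measure the spread between the libraries of all groups, P-SSCs included.

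Genes were named by rule, namely the 4 label markers, the 20 members with the widest gap in each direction with a mean of at least 10 FPKM, up to 4 members per list and direction with the highest mean, 3 members and 3 other genes at each edge, and the 5 largest graft differences called in each direction of each set. Whole fragments were read from the FPKM steps with a tolerance of 0.01. Alternatives were a pseudocount of 0.1, other filters, 2 other scalings, a gap of at least 1, each library left out, a replicate block, a fit of 2 groups and a fit without the trend. Some genes that this rule names are not reported here.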

Additional observations from a re-analysis of the deposited data

How the results depend on the processing

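With a gap of at least 1, 38 genes lay above and 29 below. After quantile normalization 116 genes lay below, of which 101 were among the 182. A pseudocount of 0.1 moved the median difference of P-SSCs from the other groups to 2.19 in the genes above and -1.80 in those below. With each library left out in turn, 135 to 201 genes lay above and 183 to 377 below, the most below without P-SSC replicate 3. In the same fits 60 to 105 members were higher in the graft than in marrow and 29 to 43 lower, against 86 and 39 with all libraries, and 555 to 1038 of all genes were called. The medians stayed at 1.51 to 1.58 and -1.37 to -1.31. *Ubac2* lay below and had a difference of 0.0067 after quantile normalization. The cause was not tested. The graft difference was refitted under the alternatives for the 20 members with the largest called differences, 5 in each direction of each set, and lost its call in 13 fits of *Zbtb20*, *Pcp4l1* or *Ubxn11*. Other named genes were not followed there.

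For the test of graft against marrow, replicate numbers were not taken as pairs, since libraries of the same number in these groups correlated at 0.0417, -0.0472 and -0.0124 in their deviations from the group means. With a replicate block 82 members were higher in the graft, 37 lower, and 755 of all genes were called. With only graft P-SSCs and BM-MSCs in the fit, 109 members were higher, 45 lower, and 1068 of all genes were called.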
